A study of Mus musculus with 15 samples.

Results

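Dendritic cells (DC) grown from mouse bone marrow with GM-CSF alone (GM DC) were compared 6 h after stimulation and at 0 h, which shows the early part of their response to bacterial lipopolysaccharide (LPS) and interferon-γ. The comparison used 5 of the 15 arrays of the series: 3 biological replicates of GM DC at 0 h and 2 at 6 h, chosen by their titles. Both groups came from female mice of the diabetes-prone NOD strain, aged 6 to 8 weeks. Marrow was cultured for 4 days in GM-CSF at 1 ng/ml, the DC were collected over 16% metrizamide, and the cells were stimulated with LPS at 10 µg/ml and interferon-γ at 50 ng/ml. The remaining arrays hold GM DC at 20 h (2 arrays) and DC grown with GM-CSF and interleukin-4 (GM4 DC, with interleukin-4 at 1 ng/ml and 14.5% metrizamide for all but 1 array, whose protocol gives neither) at 0 h (3), 6 h (3) and 20 h (2). No unstimulated culture of the 6 h age was analysed here, so time in culture and stimulation cannot be told apart. The submitters state that 3 biological replicates were made and that some RNA was not good enough, and the groups analysed here have 2 or 3 arrays.

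LPS is sensed by Tlr4 with the help of Cd14, and the adaptors below it release NF-kappaB from its inhibitors and activate AP-1 and interferon regulatory factors. Interferon-γ and the type I interferon that LPS elicits act through receptors coupled to Janus kinases. NF-kappaB sites, the interferon-stimulated response element (ISRE) and the γ-activated site (GAS) are promoter elements through which these signals are known to act. In DC the joint signal is known for maturation: cytokines and costimulatory molecules are made for T cells, uptake of antigen falls, and the cells leave the tissue for lymph nodes.

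Promoter sequences of 6 genes that rose at 6 h are shown because they carry these elements. They are the 250 bases before the annotated transcription start, from RefSeq on GRCm38.p6 and written 5′ to 3′ on the gene's strand, with capitals for each match to an ISRE (GAAANNGAAA), a GAS (TTCNNNGAA) or the NF-kappaB consensus on either strand. Gbp2 and Igtp encode GTPases induced by interferon-γ, Ifit1 an antiviral protein, Cxcl10 a T cell chemokine, Irf1 a transcription factor and Nfkbia the inhibitor IκBα.
Gbp2, chr3:142620413-142620662, plus strand: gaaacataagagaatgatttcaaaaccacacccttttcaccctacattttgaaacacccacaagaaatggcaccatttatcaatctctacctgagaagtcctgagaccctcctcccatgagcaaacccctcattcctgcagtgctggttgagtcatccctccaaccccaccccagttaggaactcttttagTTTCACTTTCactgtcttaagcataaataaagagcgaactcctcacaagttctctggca
Igtp, chr11:58199306-58199555, plus strand: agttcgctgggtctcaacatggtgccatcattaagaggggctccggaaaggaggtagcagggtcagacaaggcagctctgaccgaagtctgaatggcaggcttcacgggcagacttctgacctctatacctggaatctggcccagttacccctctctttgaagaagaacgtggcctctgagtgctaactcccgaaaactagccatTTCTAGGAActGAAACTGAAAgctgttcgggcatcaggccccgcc
Ifit1, chr19:34640639-34640888, plus strand: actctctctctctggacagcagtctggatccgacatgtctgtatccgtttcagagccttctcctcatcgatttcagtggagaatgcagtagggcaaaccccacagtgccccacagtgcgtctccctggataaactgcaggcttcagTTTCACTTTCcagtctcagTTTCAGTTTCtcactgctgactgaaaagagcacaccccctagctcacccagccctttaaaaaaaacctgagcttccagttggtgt
Cxcl10, chr5:92348890-92349139, minus strand: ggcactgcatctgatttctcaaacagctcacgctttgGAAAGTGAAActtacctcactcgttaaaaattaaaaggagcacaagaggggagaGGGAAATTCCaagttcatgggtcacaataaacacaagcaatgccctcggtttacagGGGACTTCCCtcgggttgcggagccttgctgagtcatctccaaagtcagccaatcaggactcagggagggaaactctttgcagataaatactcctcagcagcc
Irf1, chr11:53769764-53770013, plus strand: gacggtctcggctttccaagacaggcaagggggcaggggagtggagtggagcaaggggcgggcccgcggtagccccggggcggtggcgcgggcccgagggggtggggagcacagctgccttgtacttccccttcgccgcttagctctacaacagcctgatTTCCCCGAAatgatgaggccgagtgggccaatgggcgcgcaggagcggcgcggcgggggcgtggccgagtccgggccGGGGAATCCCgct
Nfkbia, chr12:55492648-55492897, minus strand: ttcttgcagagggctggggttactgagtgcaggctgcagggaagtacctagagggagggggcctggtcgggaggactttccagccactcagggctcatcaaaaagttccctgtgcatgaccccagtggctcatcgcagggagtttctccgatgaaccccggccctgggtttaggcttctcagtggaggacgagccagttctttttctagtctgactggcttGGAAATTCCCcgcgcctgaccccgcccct
Gbp2 held an ISRE at bases 192 to 201, counted from the first base printed. Igtp held a GAS at 206 to 214 next to an ISRE at 217 to 226, and Ifit1 a pair of ISREs at 147 to 156 and 166 to 175. The Cxcl10 sequence had an ISRE at 38 to 47 and NF-kappaB matches at 92 to 101 and 148 to 157. Irf1, shown upstream of 1 of its 2 listed starts, had a GAS at 161 to 169 and an NF-kappaB match at 238 to 247, and Nfkbia had an NF-kappaB match at 222 to 231. These are matches of letters, not sites shown to be bound.

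Messenger RNA was measured on Affymetrix oligonucleotide arrays as MAS5 signals, a linear intensity whose trimmed mean was about 150.1 on each array. A probe set is the group of short probes for 1 transcript, and where a gene had several, the brightest on average stood for it. The 3 arrays at 0 h correlated with each other at 0.9665 to 0.979 over all probe sets, the 2 at 6 h at 0.9731, and arrays of different times at 0.8989 to 0.9248. Signals under 16, near the background of these arrays, made up 29.7% to 34% of each of the 5 arrays. The Gapdh control probe sets gave a 3′/5′ ratio, which rises with RNA degradation, of 1.183 to 2.464 at 0 h and 1.626 to 1.849 at 6 h, so the ranges overlapped. GM 0 h replicate 3 had the highest of these ratios and GM 6 h replicate 1 the highest hybridisation controls, and results were also computed without this pair. Differences are given as log2(signal + 16) at 6 h minus 0 h with limma's standard error, a scale on which low genes appear to change less than they do. A gene passed at a Benjamini-Hochberg adjusted p under 0.05 over all 12422 probe sets.

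The labelled cell type was checked against markers. Markers of DC summed to 21980 to 29710 at 0 h and 32650 to 43370 at 6 h over 16 genes. Among them the invariant chain Cd74 had signals of 7150.2, 5292 and 5822 at 0 h and 9868 and 6396 at 6 h. The class II chain H2-Aa had 4656, 3671 and 4366 at 0 h and 6028 and 4217 at 6 h. Over all genes 9.31% were higher at 6 h and 19.3% lower, and the marker counts are to be read against these shares. Of the 16 DC markers 5 were higher at 6 h (Cd86, Ly75, Ccr7, Fscn1 and Cd83). Cd86, Cd83 and Fscn1 are also counted among the maturation genes below, so their rise says nothing on cell identity. Itgax, which encodes CD11c, was lower, and 10 did not pass. H2-Ea, which NOD mice are known not to express, lay at 2.23, 12.1 and 8.38 at 0 h and 3.39 and 10.9 at 6 h. Markers of T and NK cells summed to 153.1 to 227 at 0 h and 258.9 to 302.4 at 6 h over 16 genes, of which Cd247 was higher and 8 were below 16 on all 5 arrays. B cell markers summed to 615.2 to 954.2 and 1705 to 1726 over 14, where Blnk and Cd79a were higher. Plasmacytoid DC markers summed to 386.5 to 409.8 and 1462 to 1698 over 7 genes, where Irf7, Tcf4 and Ly6d were higher. Monocyte and macrophage markers summed to 15290 to 17770 and 19100 to 26460 over 16 genes, where Marco, Adgre1, Mertk and Cd14 were higher and Csf1r, Mrc1 and Ccr2 lower. Neutrophil and granule markers were present, with sums over 17 genes of 9860 to 10080 at 0 h and 7921 to 10790 at 6 h. Of these only Lcn2 and Fpr2 passed, and the part of any of these cell types in the results was not tested. Mast cell and basophil markers summed to 207.4 to 311.3 and 622.1 to 657.9, and the histamine-forming enzyme Hdc, with 6.90, 6.75 and 13.5 at 0 h and 271 and 326 at 6 h, was the only one that passed. The shares higher were 11.8% of neutrophil, 14.3% of B cell and 6.25% each of T and NK cell and of mast cell markers, near the 9.31% of all genes. In bulk RNA, fewer cells of a type and less RNA per cell cannot be told apart.

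The response at 6 h was broad, with more genes lower than higher and the steepest changes upward. Of 8251 genes, 768 (9.31%) were higher at 6 h and 1594 (19.3%) lower, which corresponds to 1058 and 1954 of 12422 probe sets. Counts in the gene lists below are to be read against these shares. Increases of at least 2-fold on the log2(signal + 16) scale were made by 414 genes, of at least 8-fold by 56 and of at least 16-fold by 28. Decreases of at least 2-fold were made by 716 genes, but of at least 8-fold by 4 and of at least 16-fold by 0. The median difference was 1.06 among genes that were higher and -0.94 among those that were lower, against -0.05 over all genes. For 765 of the 768 and 1589 of the 1594 the arrays of the 2 times did not overlap. Passing favours such separation, and with 3 and 2 arrays it is common without a change too. It is thus no separate support, here or for single genes below. The balance of directions depended on scaling: with each array centred on its median 1076 genes were higher and 1192 lower (47.7% of probe set calls lower, against 64.9%), with a shift of the median of all probe sets from -0.01 to 0.11. With quantile normalization 930 were higher and 1366 lower. Without GM 6 h replicate 1 the probe sets that passed fell from 3012 to 1929, and 1807 of these were among the 3012 with the same direction. Without GM 0 h replicate 3 and GM 6 h replicate 1 it was 1958. The plot of all genes shows the asymmetry.

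**Figure D1:**
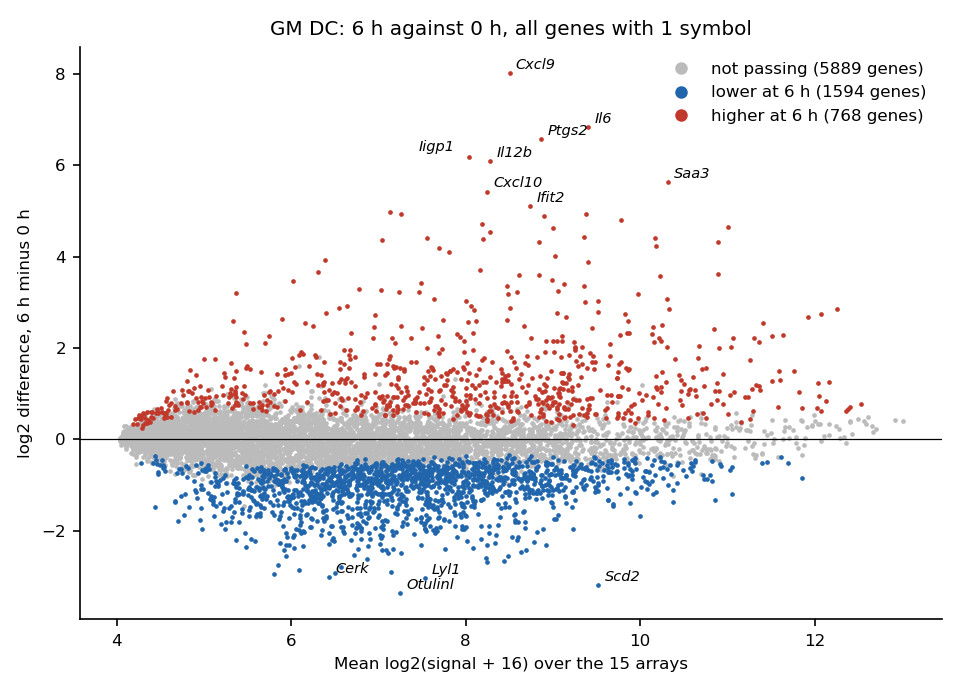
Each point is 1 of 8251 genes in GM DC, with the mean of log2(signal + 16) over the 15 arrays on the x axis and the log2 difference of 6 h minus 0 h on the y axis. The 768 genes that were higher reach differences of over 8 on the log2 scale, while the 1594 that were lower end near -3.37.

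At the start of the LPS pathway, of 14 measured genes of LPS sensing 5 (35.7%) were higher and 2 (14.3%) lower (median 0.55). Of all genes 9.31% were higher and 19.3% lower. Tlr4 itself was not among the 14. The co-receptor Cd14 already had signals of 3560.1, 3957 and 3457 at 0 h and reached 12293 and 8565 at 6 h (1.49 ± 0.19, adjusted p = 5.27e-05). Every 6 h array was above every 0 h array. Tlr6, which pairs with Tlr2 for lipopeptides, rose by 1.82 ± 0.20 and the adaptor Myd88 by 1.33 ± 0.17, from 264, 224 and 179 at 0 h to 526 and 630.2 at 6 h. Traf6, the ubiquitin ligase downstream of Myd88, rose by 0.92 ± 0.14, whereas the kinase Irak1 in the same relay was lower (-0.99 ± 0.17), as was Ly86 (-0.90 ± 0.14), the MD-1 partner of the LPS regulator Cd180. Among 18 receptors and kinases of interferon, GM-CSF and related cytokines 5 (27.8%) were higher and 4 (22.2%) lower. The lower share was near the 19.3% of all genes. The higher count was 2 without GM 6 h replicate 1 or GM 0 h replicate 3 and 3 without GM 0 h replicate 2. Jak2, the kinase of the interferon-γ and GM-CSF receptors, had signals of 327, 247 and 371 at 0 h and 949 and 953 at 6 h (1.57 ± 0.19). Ifngr1, the ligand-binding chain of the interferon-γ receptor, went the other way, from 277, 197 and 226 at 0 h to 92.1 and 94.3 at 6 h (-1.18 ± 0.18). The interleukin-6 receptor chains Il6ra (-1.82 ± 0.17) and Il6st (-1.78 ± 0.22) were also lower, and both had no overlap between times.

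Genes of NF-kappaB signalling rose as a group. In a list of 20 subunits, inhibitors, kinases, adaptors and related genes, 18 were higher, 0 lower and 2 did not pass, with a median of 1.17. The inhibitors led. Nfkbiz, an atypical IκB needed for secondary response genes such as Il6, had signals of 73.0, 35.7 and 49.9 at 0 h and 1129.9 and 1147 at 6 h (4.10 ± 0.21, adjusted p = 1.34e-08). Tnfaip3, the deubiquitinase A20 that ends NF-kappaB signalling, was near background at 0 h, with 9.35, 6.82 and 23.7, and reached 293 and 235 at 6 h (3.29 ± 0.33). Nfkbia, whose promoter is shown above, went from 1187, 1100.1 and 1446 at 0 h to 7139.9 and 5179 at 6 h (2.28 ± 0.18), and Nfkbib and Nfkbie rose by 2.02 and 1.53. Of the subunits, Nfkb2 (p100) rose by 2.00 ± 0.17 and Rela by 0.94 ± 0.14, from 1002, 869.9 and 977 at 0 h to 1796 and 1872 at 6 h. Traf1, an adaptor of TNF receptors, rose by 2.60 ± 0.22.

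A list of STAT and IRF transcription factors, which also held Batf, Batf3 and Ciita, was higher for 9 of 15 genes and lower for 0 (median 0.96). Irf1, an early interferon-induced factor, had tightly grouped signals of 359.8, 346 and 365 at 0 h and 2918 and 2419.7 at 6 h (2.84 ± 0.13, adjusted p = 4.32e-09). Irf7, the factor that amplifies type I interferon, rose by 2.69 ± 0.20 and Irf8, a factor of monocytes and conventional DC, by 2.05 ± 0.23. Stat3 and Stat5a rose by 1.54 and 1.36. The immediate early factors divided. Their list of 26 genes held AP-1, EGR and CREB family members and others such as Klf, Nr4a and Cebp genes, Myc and Ets2. Of these 10 (38.5%) were higher and 6 (23.1%) lower, with Klf4 and Myc among the lower. Of all genes 9.31% were higher and 19.3% lower. Junb rose by 1.46 ± 0.19, Atf3, a repressor of inflammatory genes, by 1.28 ± 0.20, and Cebpb by 1.07 ± 0.17. Fos, by contrast, had signals of 1844, 1319 and 1839 at 0 h and 373 and 188 at 6 h (-2.56 ± 0.27), Egr2 469.5, 459 and 345 at 0 h and 51.6 and 72.4 at 6 h (-2.50 ± 0.21) and Egr1 281, 207 and 298 at 0 h and 73.4 and 71.1 at 6 h (-1.64 ± 0.23).

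Inflammatory and T cell polarising cytokines rose steeply: 16 of 26 genes were higher and 1 lower (median 1.66). Il6 encodes a pleiotropic inflammatory cytokine, and its signals of 38.9, 29.2 and 29.8 at 0 h became 6159 and 4918 at 6 h (6.83 ± 0.29, adjusted p = 3.11e-09). Il12b, the p40 chain that interleukin-12 and interleukin-23 share, had signals of 33.4, 20.3 and 58.0 at 0 h and 3856 and 3087 at 6 h (6.09 ± 0.34). Its partner for interleukin-12, Il12a, lay below 16 on each 0 h array (3.88, 3.63 and 2.63) and at 192 and 136 at 6 h (3.20 ± 0.23). Both chains of the cytokine that drives Th1 cells were thus higher, and neither overlapped between times. Tnf had signals of 52.4, 110.2 and 69.7 at 0 h and 1886 and 2955 at 6 h (4.72 ± 0.32), Il1a 68.4, 104 and 66.3 at 0 h and 2583 and 2967 at 6 h (4.89 ± 0.17) and Il1b 518, 291 and 248 at 0 h and 9107 and 6140.3 at 6 h (4.42 ± 0.28). Il1rn, the interleukin-1 receptor antagonist, rose as well, from 1771, 1844 and 1609.8 at 0 h to 11864 and 8829.7 at 6 h (2.55 ± 0.16). Il18bp, which binds interleukin-18, rose by 2.92 ± 0.24, while Il18 itself did not pass. Il10, the main suppressive cytokine of the list, was below 16 at 0 h (6.30, 3.55 and 2.86) and reached 98.3 and 77.6 (2.36 ± 0.21). Inhba, the activin A subunit, rose by 3.60 ± 0.25, and its binding protein Fst by 3.47 ± 0.26. Il15, a cytokine for NK and memory T cells, rose by 1.64 ± 0.19 and Ebi3 by 1.68 ± 0.18.

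Chemokines were higher for 11 of 24 genes and lower for 1 (median 0.76). Cxcl9, an interferon-γ induced ligand of Cxcr3 on T cells, made the largest increase of any gene, from 2.43, 2.43 and 5.10 on the 0 h arrays to 5345 and 4666 (8.02 ± 0.15, adjusted p = 2e-13). All 3 signals at 0 h were below 16, so the difference is set in part by the offset. Cxcl10, a second Cxcr3 ligand, had signals of 22.4, 14.6 and 26.0 at 0 h and 1251 and 1943 at 6 h (5.42 ± 0.28). The neutrophil attractants Cxcl1 and Cxcl2 went from 59.5, 47.2 and 69.5 at 0 h to 1577 and 1492 at 6 h (4.39 ± 0.19) and from 83.8, 129 and 116 at 0 h to 1923 and 3181 at 6 h (4.33 ± 0.27). Of the CC chemokines, Ccl4 rose by 2.83 ± 0.20, Ccl3 by 1.81 ± 0.28 and Ccl5 by 2.86 ± 0.40, and Ccl5 was uneven at 0 h (1296, 735 and 2939). Cxcl14, a homeostatic chemokine, was the 1 that was lower (-1.20 ± 0.19). Among 23 chemokine and chemoattractant receptors 3 (13%) were higher and 2 (8.7%) lower, against 9.31% and 19.3% of all genes. Ccr7, which guides DC to lymph nodes, rose by 1.53 ± 0.26, from 685, 435 and 820.0 at 0 h to 2040.2 and 1659.9 at 6 h. Ccr2, which brings monocytes to inflamed tissue, was at 766, 766 and 586 at 0 h and 143 and 185 at 6 h (-2.00 ± 0.27), and C3ar1, the receptor of complement C3a, at 641, 723 and 611 at 0 h and 108 and 155 at 6 h (-2.21 ± 0.22).

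**Figure D2:**
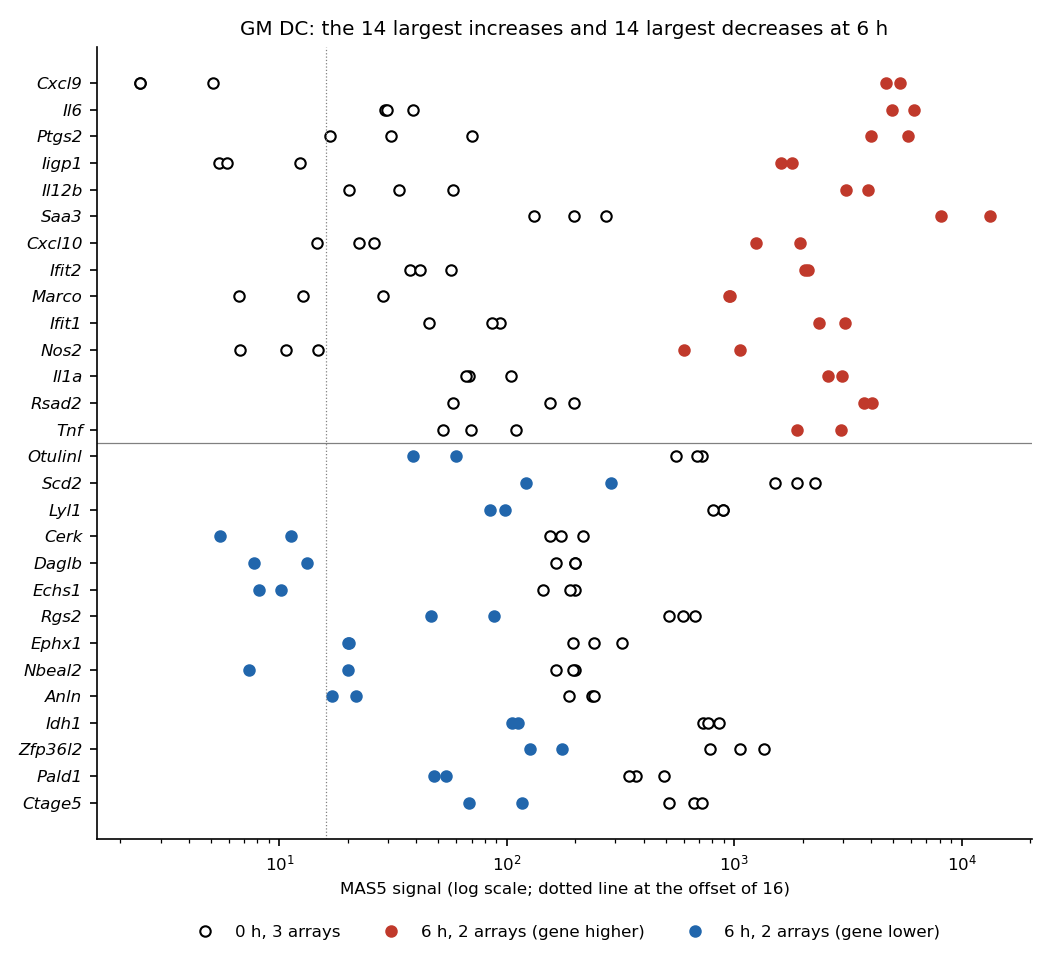
Signals of the 28 genes with the largest differences in GM DC are plotted on a log axis, with open circles for the 3 arrays at 0 h and filled circles for the 2 arrays at 6 h. The circles of the 2 times do not overlap for any of the 28, since this was a condition of their choice, and several genes lie under the dotted line at 16 at 1 of the times.

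The 9 measured GTPases that interferon-γ induces, which attack the vacuoles of intracellular pathogens, were all higher, with a median of 3.40. Iigp1 had signals of 5.41, 12.3 and 5.91 at 0 h and 1789.5 and 1611 at 6 h (6.18 ± 0.32, adjusted p = 1.49e-08), and a second probe set of the gene rose by 4.19. Gbp2b was below 16 at 0 h and reached 310.1 and 266 (3.94 ± 0.36). Gbp2 had signals of 380.4, 311 and 331 at 0 h and 4209.7 and 4487 at 6 h (3.62 ± 0.13), and Igtp 87.6, 111 and 69.8 at 0 h and 1292 and 908 at 6 h (3.40 ± 0.21). Gbp3, Ifi47, Irgm1 and Irgm2 rose by 3.06, 3.48, 2.22 and 2.77. Of the 8 that matched a RefSeq promoter, 7 (87.5%) held an ISRE and 3 (37.5%) a GAS, against 3.99% and 9.55% of all 27025 genes in the RefSeq promoter table. The GAS share was similar among the type I interferon antiviral genes that rose. Of these, 19 matched a promoter, and 8 (42.1%) held an ISRE and 7 (36.8%) a GAS. These shares cover 300 bases per promoter, the 250 before the start and the 50 after it. Of the 18 genes of the NF-kappaB signalling list that rose, 16 matched a promoter. They held the NF-kappaB consensus in 8 cases (50%), against 5.14% of all genes in the table, and an ISRE in 0. The lists were built around genes of these signals with earlier results known. High shares were thus favoured by the choice and are no separate support, and use of the sites was not tested.

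Antiviral genes of the type I interferon response were higher for 25 of 31 genes and lower for 1 (median 2.03). Ifit1 and Ifit2, which bind viral RNA, had signals of 45.7, 93.0 and 85.7 at 0 h and 2362 and 3063 at 6 h (4.94 ± 0.23) and of 37.5, 56.9 and 41.4 at 0 h and 2044 and 2105 at 6 h (5.11 ± 0.23). Rsad2, the antiviral enzyme viperin, went from 58.1, 155 and 198 at 0 h to 3708 and 4028 at 6 h (4.80 ± 0.34), and its neighbour in the same pathway, Cmpk2, rose by 4.54 ± 0.30. Isg15, a ubiquitin-like modifier, had signals of 294, 443 and 304 at 0 h and 7836 and 6501 at 6 h (4.32 ± 0.22), and Usp18, which removes it, rose by 3.18 ± 0.15. The RNA sensor Ifih1 rose by 3.89 ± 0.17 and the GTPases Mx1 and Mx2 by 2.74 and 3.36. No array at 6 h overlapped with one at 0 h for these genes. Ifnb1 itself was low at both times, with 19.0, 22.4 and 24.4 at 0 h and 43.5 and 80.5 at 6 h (1.00 ± 0.32, adjusted p = 0.032), and lost its call under 7 of 17 alternative settings.

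Costimulation and maturation genes were higher for 14 of 22 genes (63.6%) and lower for 4 (18.2%), with a median of 1.45. The lower share was near the 19.3% of all genes. Cd40, the receptor through which T cells license DC, had signals of 72.8, 68.5 and 77.6 at 0 h and 2345 and 2009 at 6 h (4.62 ± 0.13, adjusted p = 2.27e-11). Cd86 had 92.0, 105 and 76.9 at 0 h and 1211 and 944 at 6 h (3.35 ± 0.27) and Cd80 53.2, 41.4 and 46.8 at 0 h and 201 and 174 at 6 h (1.69 ± 0.29). Both ligands of Cd28 thus rose, with no overlap between times. Among TNF family ligands for T cells, Tnfsf9, Cd70 and Tnfsf4 rose by 3.26, 2.10 and 1.55. Cd200, an inhibitory ligand, rose by 2.26 ± 0.27. The actin-bundling protein Fscn1, a marker of mature DC, rose by 1.49 ± 0.27, and Icam1 by 1.42 ± 0.25. The lower count was 1 without GM 6 h replicate 1, and it was 2 when any of GM 6 h replicate 2 and GM 0 h replicates 1 and 3 was left out.

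Of the antigen presentation genes, most in the MHC class I list rose, while 18 of 22 in the class II list did not pass. In the class I list 10 of 16 genes were higher and 0 lower (median 0.73). The peptide transporter genes Tap1 (531, 791 and 856 at 0 h and 2117 and 2881 at 6 h, 1.77 ± 0.18) and Tap2 (1.47 ± 0.17) led. Tapbp, which loads peptide, and the immunoproteasome subunits Psmb9, Psmb10 and Psmb8 rose by 1.10, 1.10, 1.02 and 0.76. The heavy chain genes H2-K1 and H2-D1, whose near-identical sequences can share probes, differed by 0.49 ± 0.19 (adjusted p = 0.0749) and 0.39 ± 0.20 (adjusted p = 0.186) and did not pass. H2-K1 passed under 5 of 17 alternative settings and H2-D1 under 2. In the class II list 1 of 22 genes was higher (Ctsc) and 3 were lower (H2-DMa, Ctsh and Ifi30), against 9.31% and 19.3% of all genes. Without GM 6 h replicate 1 the counts were 0 and 1, and without GM 6 h replicate 2 they were 1 and 1. H2-Ab1 had signals of 2233, 995 and 1443 at 0 h and 2287 and 1571 at 6 h (adjusted p = 0.574), and its arrays overlapped between times. For H2-Aa and Cd74 the differences were 0.26 ± 0.24 and 0.39 ± 0.22 (adjusted p = 0.513 and 0.236), and both turned negative with quantile normalization.

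Feedback inhibitors and brakes were higher for 18 of 33 genes (54.5%) and lower for 7 (21.2%), with a median of 0.86. The lower share was near the 19.3% of all genes. Socs3, which blocks signalling by the interleukin-6 receptor, had signals of 135, 132 and 143 at 0 h and 2655 and 2237 at 6 h (4.01 ± 0.36). Socs1, the inhibitor of interferon-γ signalling, had 282, 275 and 174 at 0 h and 3564 and 2539 at 6 h (3.57 ± 0.22, adjusted p = 7.51e-08). The phosphatases Dusp1 and Dusp2, which switch off MAP kinases, rose by 1.76 and 1.99, and the stress protein Gadd45b by 2.47. Among the brakes that fell, Rgs2, a regulator of G protein signalling, went from 594, 514 and 673 at 0 h to 46.4 and 88.2 at 6 h (-2.91 ± 0.20). Zfp36l1 and Zfp36l2, which direct mRNAs to decay, fell by 1.68 and 2.67 on the log2 scale. Zfp36l2 had signals of 1353, 1057 and 779 at 0 h and 175 and 127 at 6 h, but its other probe sets differed by only -0.02 and -0.10 and did not pass.

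Genes of small mediators gave some of the steepest changes. Nos2, the inducible nitric oxide synthase, lay below 16 on all 0 h arrays (6.74, 10.6 and 14.8) and at 1058 and 601 at 6 h (4.94 ± 0.31). The arginine transporter Slc7a2 rose by 3.23 ± 0.24 and Gch1, which starts the synthesis of the cofactor tetrahydrobiopterin, by 2.48 ± 0.21. Arginase Arg1, which competes for the same substrate, fell from 889, 1137 and 934 at 0 h to 369 and 368 at 6 h (-1.37 ± 0.19), and the later cofactor enzymes Pts and Spr fell by 1.20 and 1.01 on the log2 scale. The list of nitric oxide and arginine genes had 5 of 15 higher and 6 lower. Ptgs2, the inducible cyclooxygenase, had signals of 30.9, 16.6 and 70.2 at 0 h and 5802 and 3988 at 6 h (6.57 ± 0.32), and Ptges, which completes prostaglandin E2, 8.65, 38.6 and 37.4 at 0 h and 823 and 665 at 6 h (4.18 ± 0.32). Lta4h, which makes leukotriene B4, was lower (-1.90 ± 0.20), as was the prostaglandin E2 receptor Ptger2 (-1.71 ± 0.24). Of the 18 prostaglandin and leukotriene genes 4 (22.2%) rose and 3 (16.7%) fell, the latter near the 19.3% of all genes.

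Secreted defence and antioxidant genes that passed were mostly higher. Of 29 acute-phase, complement and defence genes 13 passed upward and 1 downward, while 15 did not pass. Saa3, a serum amyloid A, had signals of 272, 132 and 198 at 0 h and 13258 and 8099.5 at 6 h (5.64 ± 0.47), among the highest on the 6 h arrays. The soluble pattern receptor Ptx3 had 280.2, 219 and 338 at 0 h and 3402 and 4259 at 6 h (3.72 ± 0.33), and the iron-binding Lcn2 rose by 3.24 ± 0.34. Of 27 genes of oxidative burst and antioxidant defence 12 were higher, 3 lower and 12 did not pass (median 0.50). Acod1, which makes itaconate, went from 251, 342 and 410.4 at 0 h to 9178 and 8008 at 6 h (4.64 ± 0.27), and mitochondrial superoxide dismutase Sod2 from 376, 426 and 408 at 0 h to 3034 and 2744 at 6 h (2.79 ± 0.17). Metallothioneins Mt1 and Mt2 rose by 2.13 and 2.74 and haem oxygenase Hmox1 by 1.73 ± 0.24. Catalase Cat was lower (-1.06 ± 0.18).

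Receptors for uptake moved both ways, with 5 of 28 higher and 9 lower. Marco, a scavenger receptor for bacteria, had signals of 6.66, 28.7 and 12.7 at 0 h and 962 and 945 at 6 h (4.98 ± 0.34), and Clec4e, the receptor Mincle, 65.8, 38.5 and 40.3 at 0 h and 436 and 489 at 6 h (2.92 ± 0.24). Ly75, the antigen uptake receptor DEC-205, rose by 1.70 ± 0.26. The inhibitory lectin Clec4a2 fell from 567, 507 and 412 at 0 h to 61.6 and 102 at 6 h (-2.41 ± 0.22), Stab1 by 1.73 and the mannose receptor Mrc1 by 1.42 on the log2 scale. Lysosomal genes were lower for 14 of 29 and higher for 2 (median -0.48). The lower count was 7 without GM 6 h replicate 1, 8 without GM 6 h replicate 2 and 9 without GM 0 h replicate 2. The glucuronidase Gusb (1076, 901 and 811 at 0 h and 283 and 358 at 6 h, -1.49 ± 0.18), the cholesterol exporter Npc1 (-1.30 ± 0.12) and the hexosaminidase Hexa (-1.01 ± 0.14) kept their calls under all 17 alternative settings. Among 26 adhesion genes 8 (30.8%) were higher and 4 (15.4%) lower, against 9.31% and 19.3% of all genes. Vcam1 and the integrin chain Itgal rose by 2.72 and 1.65, and Itgb5 and Selplg, the ligand of selectins, differed by -1.95 and -1.34.

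DNA replication and mitosis genes fell as a group: 53 of 68 genes were lower and 1 was higher, with a median of -1.23. Without GM 0 h replicate 3 and GM 6 h replicate 1 the count of lower genes was 35. Kif20a, a mitotic kinesin, had signals of 473, 506 and 459 at 0 h and 49.3 and 95.0 at 6 h (-2.54 ± 0.33, adjusted p = 6.27e-05). Cdc20, which activates the anaphase promoting complex, had 395, 467 and 340.2 at 0 h and 57.2 and 80.7 at 6 h (-2.30 ± 0.30). The ribonucleotide reductase subunits Rrm1 and Rrm2, which supply deoxynucleotides, differed by -2.06 and -2.06. The replication gene Mcm3, the kinases Plk1 and Aurka and the cyclins Ccna2 and Ccnb2 were lower by 1.66 to 1.93 on the log2 scale. Anln, a scaffold of the contractile ring, was among the 14 largest decreases (237, 242 and 188 at 0 h and 17.0 and 21.7 at 6 h, -2.75 ± 0.31). The gene that was higher, Ccnd2, encodes cyclin D2 and had signals of 90.2, 84.8 and 132 at 0 h and 941 and 1138 at 6 h (3.17 ± 0.26).

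Sterol and fatty acid synthesis genes were lower for 18 of 28 and higher for 3 (median -1.15). Scd2, a stearoyl-CoA desaturase, fell from 1518, 2259.9 and 1882 at 0 h to 287 and 122 at 6 h (-3.20 ± 0.26, adjusted p = 9.31e-07) and a second probe set of the gene fell by 1.68 on the log2 scale. Along the cholesterol pathway Hmgcs1 (-1.34), Mvd (-2.44), Sqle (-1.50), Lss (-1.44), Cyp51 (-1.51), Msmo1 (-1.72) and Dhcr7 (-1.81) were lower. Idi1, the isopentenyl diphosphate isomerase of the same pathway, was higher (0.93 ± 0.24), a call that was lost without GM 6 h replicate 1. Fatty acid synthase Fasn and the elongases Elovl5 and Elovl6 differed by -1.89, -1.96 and -1.49. Ch25h, by contrast, went from 28.5, 24.6 and 51.1 at 0 h to 723 and 1404 at 6 h (4.37 ± 0.34). It makes 25-hydroxycholesterol, an oxysterol known to restrain the factor that drives this pathway.

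Energy metabolism genes moved less. Of 51 genes of oxidative phosphorylation and the citrate cycle 17 were lower and 1 higher (median -0.28). The lower count was 7 without GM 6 h replicate 1 and 11 without GM 0 h replicate 2. Idh1, the cytosolic isocitrate dehydrogenase placed in that list, fell most, from 731, 857 and 764 at 0 h to 112 and 105 at 6 h (-2.68 ± 0.22). Echs1, a mitochondrial enzyme of fatty acid oxidation, fell from 145, 199 and 189 at 0 h to 8.15 and 10.2 at 6 h (-2.93 ± 0.30), below 16 on both 6 h arrays. Of 21 genes of glycolysis and glucose uptake 6 were higher and 0 lower. These include Acod1, which is not a glycolytic enzyme, the phosphofructokinase Pfkp (168, 142 and 120.0 at 0 h and 698 and 493 at 6 h, 1.93 ± 0.20) and Hif1a (2758, 3166 and 3555 at 0 h and 8869.8 and 6779 at 6 h, 1.30 ± 0.19), a factor known to drive glycolytic genes. Without the 2 arrays with extreme control values 3 genes of the list were higher. Ldha, which makes lactate, differed by 0.22 ± 0.18 and did not pass (adjusted p = 0.447). Genes of the unfolded protein response were higher for 6 of 23 and lower for 2, and fewer were higher without GM 6 h replicate 1. The lower genes were Eif2ak3, which kept its call under all 17 alternative settings, and Xbp1, which kept it under 11. The chaperone Hspa5 rose by 1.43 ± 0.19, from 1277, 1617 and 1599.8 at 0 h to 3845 and 4223 at 6 h. Cytosolic ribosomal protein genes, 32 in number, had 2 higher and 1 lower, and 9 were lower with quantile normalization.

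Survival and lineage genes that passed were more often higher than lower. Of 29 apoptosis genes 12 (41.4%) were higher and 4 (13.8%) lower, against 9.31% and 19.3% of all genes. Cflar, an inhibitor of caspase-8, had signals of 83.2, 85.5 and 100.1 at 0 h and 548 and 679.7 at 6 h (2.57 ± 0.20), and Casp4, the caspase activated by cytosolic LPS, 106, 61.8 and 75.0 at 0 h and 533 and 579 at 6 h (2.59 ± 0.18). The effector caspase Casp6 was lower (-1.30 ± 0.23). Of 31 lineage transcription factors 13 (41.9%) were higher and 6 (19.4%) lower, the latter near the share of all genes. Cebpa, a factor of granulocyte and monocyte progenitors, had signals of 1135, 1350.3 and 1264 at 0 h and 209 and 231 at 6 h (-2.42 ± 0.13, adjusted p = 1.99e-08), and Klf4, a monocyte factor, 711, 562 and 435 at 0 h and 85.8 and 104 at 6 h (-2.38 ± 0.20). Mxd1, an antagonist of Myc, rose from 3.36, 2.02 and 2.08 to 144 and 98.5 (2.87 ± 0.34), while Myc itself was lower (-1.02 ± 0.23). Lyl1, a basic helix-loop-helix factor of blood progenitors, had signals of 896, 892 and 811 at 0 h and 84.2 and 98.4 at 6 h (-3.04 ± 0.15), and both of its probe sets fell.

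**Figure D3:**
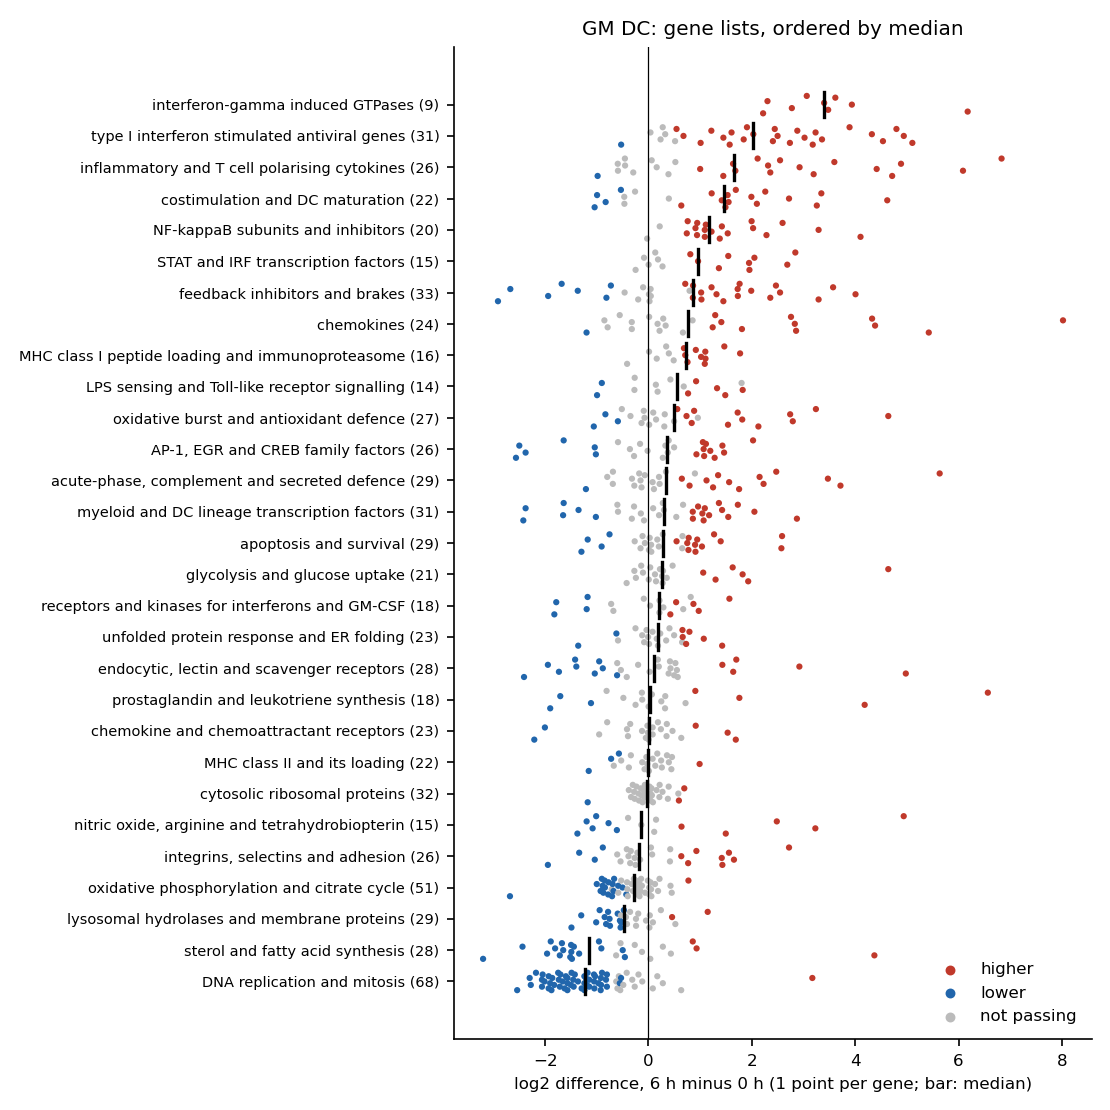
Each point is a gene of a list in GM DC, with the log2 difference of 6 h minus 0 h on the x axis, lists in rows ordered by their median (black bar) and the number of measured genes in brackets. Interferon-γ induced GTPases lie at the top with a median of 3.40 and DNA replication and mitosis at the bottom with -1.23.

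The largest decrease of any gene was that of Otulinl, from 722, 552 and 684 at 0 h to 59.6 and 38.7 at 6 h (-3.37 ± 0.20, adjusted p = 6.07e-08). Of its other probe sets 1 fell by 2.38 and 1 did not pass. Enzymes of lipid signals were among the 14 largest decreases. Cerk, the ceramide kinase, fell from 216, 174 and 154 at 0 h to 5.45 and 11.2 at 6 h (-3.02 ± 0.24), and Daglb, a diacylglycerol lipase, from 164, 199 and 199 at 0 h to 13.2 and 7.72 at 6 h (-2.94 ± 0.34). Both lay below 16 on the 6 h arrays, so their decreases are set in part by the offset. Ephx1, an epoxide hydrolase, had signals of 320.3, 196 and 243 at 0 h and 20.1 and 20.1 at 6 h (-2.87 ± 0.21), and Nbeal2, a protein needed for platelet granules, 199, 195 and 165 at 0 h and 7.32 and 20.1 at 6 h (-2.80 ± 0.31). Ctage5, which helps cargo leave the endoplasmic reticulum, had signals of 519, 666 and 725 at 0 h and 68.2 and 117 at 6 h (-2.61 ± 0.25). Pald1 had signals of 369.8, 492 and 344 at 0 h and 53.9 and 48.1 at 6 h (-2.63 ± 0.22). A second probe set of Pald1 differed by -0.05 and did not pass.

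At 20 h some early changes were smaller and others were not. The comparison of 20 h with 6 h shares the 6 h arrays with the comparison above, so their values are set side by side and no overlap is drawn from them. Over all genes 870 (10.5%) were higher at 20 h than at 6 h and 711 (8.62%) lower. Among cytokines, Il12b came down from 3856 and 3087 at 6 h to 281 and 241 at 20 h (-3.65 ± 0.37, adjusted p = 2.27e-05), Tnf to 366 and 459.9 (-2.48 ± 0.35) and Il6 to 1662 and 620.4 (-2.42 ± 0.32). Cxcl1, Ptx3, Fst and Ch25h also came down, by 2.26, 4.06, 3.45 and 2.38 on the log2 scale. Ptx3 was then at 224 and 203, against 280.2, 219 and 338 at 0 h. Among interferon targets, Igtp went on to 3726 and 3377 (1.70 ± 0.23, adjusted p = 0.000176). Iigp1 was at 1736 and 1699 and Ifit1 at 3882 and 3989, and neither passed against 6 h (adjusted p = 0.988 and 0.191). Ptgs2 and Nos2 were at 3946 and 3776 and 666 and 767 and did not pass against 6 h (adjusted p = 0.655 and 0.841).

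Some early decreases were followed by a return. Scd2 was at 1547 and 1809 at 20 h (3.05 ± 0.28 against 6 h, adjusted p = 1.17e-05), and it differed from 0 h by -0.15 ± 0.26 (adjusted p = 0.735). Cerk, Nbeal2 and Zfp36l2 rose again by 2.38, 2.58 and 2.17. Klf4, C3ar1 and Arg1 went past their first level: Klf4 was at 1034 and 1165 at 20 h (3.33 ± 0.22 against 6 h), C3ar1 at 1863 and 1524 (3.55 ± 0.24) and Arg1 at 3820.2 and 3047 (3.16 ± 0.21). Against 0 h Klf4 differed by 0.95 ± 0.20 (adjusted p = 0.0026), C3ar1 by 1.34 ± 0.22 (adjusted p = 0.000322) and Arg1 by 1.78 ± 0.19 (adjusted p = 7.4e-06). Other genes that had fallen stayed low. Rgs2 was at 42.3 and 36.3, Idh1 at 101 and 114 and Ephx1 at 10.6 and 6.41, none of which passed against 6 h (adjusted p = 0.116, 0.988 and 0.113). Ccr2 came down further, to 27.9 and 34.6 (-1.92 ± 0.30). In the replication and mitosis list 19 of 68 genes were lower at 20 h than at 6 h and 2 were higher, and in the ribosomal protein list 17 of 32 were lower and 0 higher.

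**Figure D4:**
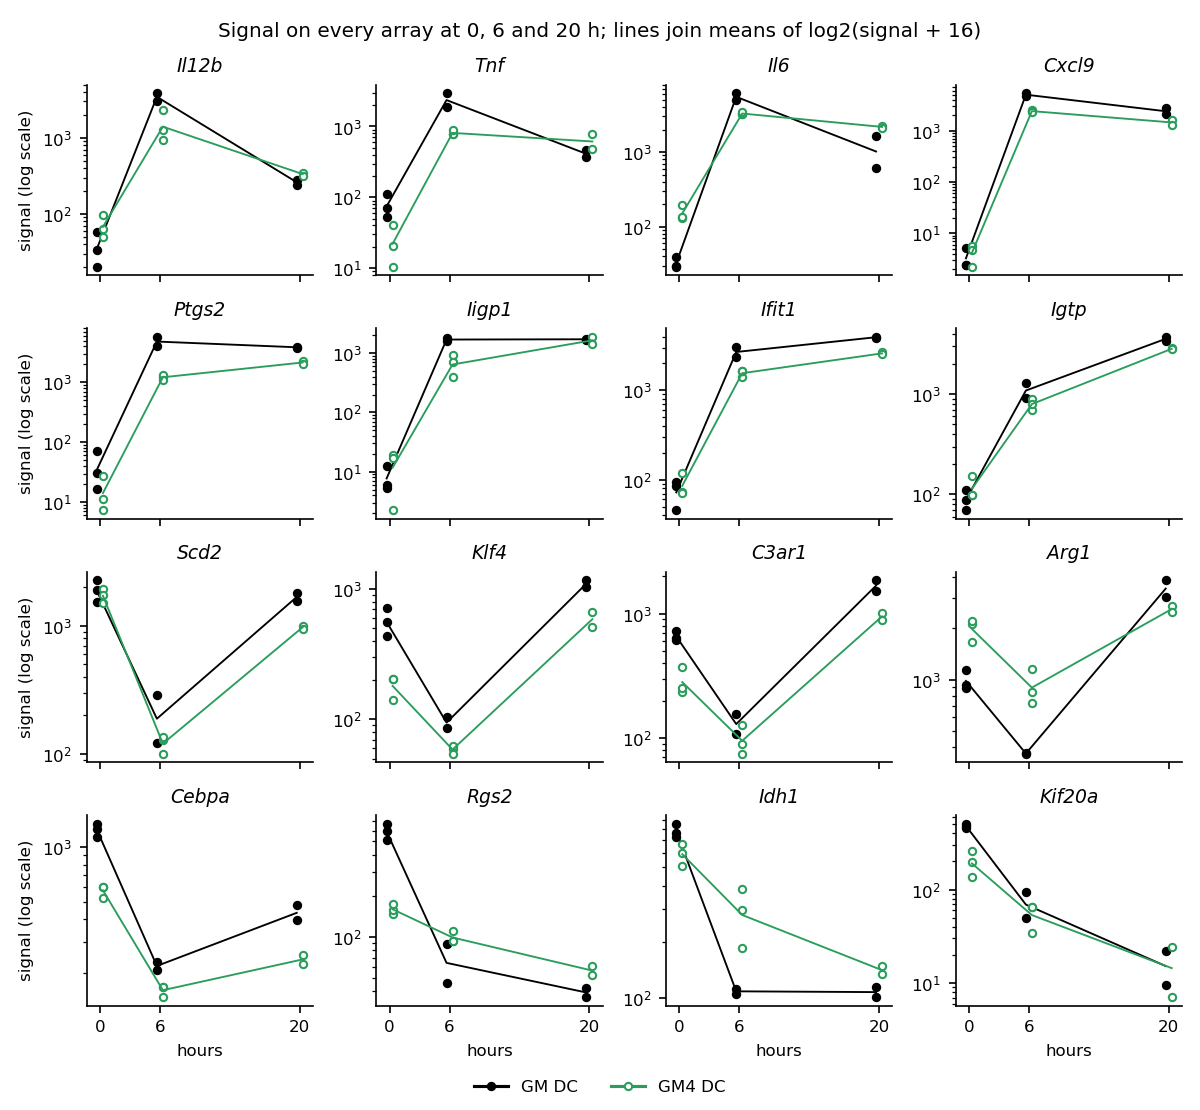
Signals of 16 genes are plotted on log axes against hours, with filled black points for GM DC, open green points for GM4 DC and lines through the means of log2(signal + 16). In GM DC Il12b and Tnf peak at 6 h, Iigp1 and Ifit1 stay high at 20 h, and Scd2, Klf4, C3ar1 and Arg1 dip at 6 h and return.

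GM4 DC received the same stimulus, which allows a test of whether the response of GM DC differed from theirs. The source names of the GM4 arrays at 0 h mention stimulation, and their titles, which say 0 h, were followed. The culture protocol of GM4 0 h replicate 1 names GM-CSF and interleukin-4 without doses and gives no metrizamide step. The difference of the responses (GM4 minus GM, each 6 h minus 0 h) was tested in the same fit and rests on separate arrays for both DC types. It passed for 52 genes (0.63%) in the upward and 50 (0.606%) in the downward direction, or 119 probe sets in all. That count was 54 without GM 6 h replicate 1, 298 without GM 6 h replicate 2, 76 without GM 0 h replicate 2, and 69 and 77 without GM4 6 h replicates 2 and 3. Many genes named here were picked for their change in GM DC, which enters the difference, so smaller changes in GM4 DC were favoured. Cd40 rose by 4.62 in GM DC and by 3.06 in GM4 DC, a difference of -1.56 ± 0.17 (adjusted p = 0.000828). Socs1 rose by 1.05 in GM4 DC, with signals of 696, 727 and 646 at 0 h and 1894, 1239 and 1291 at 6 h, a difference of -2.52 ± 0.29 (adjusted p = 0.00141). Gbp2 (-1.66 ± 0.18), Ch25h (-2.84 ± 0.46) and Usp18 (-1.20 ± 0.20) also rose less in GM4 DC. Nfkb2 differed by -1.65 ± 0.22 and did not pass in GM4 DC (adjusted p = 0.151). Il6 differed by -2.52 ± 0.39 (adjusted p = 0.0074), starting from 130.2, 196 and 133 at 0 h in GM4 DC, and lost its call without GM 6 h replicate 1. Cd86 differed by -2.40 ± 0.36, and its signals in GM4 DC, 646, 972 and 776 at 0 h and 2142, 1379 and 1217 at 6 h, were above those of GM DC at both times. Its call was lost without the pair of arrays with extreme control values.

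Among the 14 largest decreases in GM DC, some were smaller in GM4 DC. They were chosen for their change in GM DC, which enters the difference, so smaller changes in GM4 DC were favoured by the choice. Rgs2 fell by 2.91 in GM DC and by 0.61 in GM4 DC on the log2 scale, a difference of 2.30 ± 0.27 (adjusted p = 0.00141), and at 0 h it was 594, 514 and 673 in GM DC against 147, 158 and 174 in GM4 DC. Otulinl differed by 1.46 ± 0.27 and had likewise been lower at 0 h in GM4 DC (218, 214 and 200.3). Idh1 differed by 1.64 ± 0.29, with 509.9, 599 and 667 at 0 h and 186, 297 and 386 at 6 h in GM4 DC, and lost its call without GM 6 h replicate 1. Scd2, which fell by 3.66 in GM4 DC on the log2 scale, did not pass (difference -0.46 ± 0.35, adjusted p = 0.683), nor did Tnf (-0.27 ± 0.43, adjusted p = 0.882) or Cxcl10 (-0.66 ± 0.38, adjusted p = 0.549). The Gapdh 3′/5′ ratio was 1.07 to 1.306 in GM4 DC at 0 h and 1.035 to 1.477 at 6 h, below most GM arrays, and the metrizamide density differed too. The part of these in the differences was not tested beyond the fit with an RNA quality covariate, which gave 178 probe sets.

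**Figure D5:**
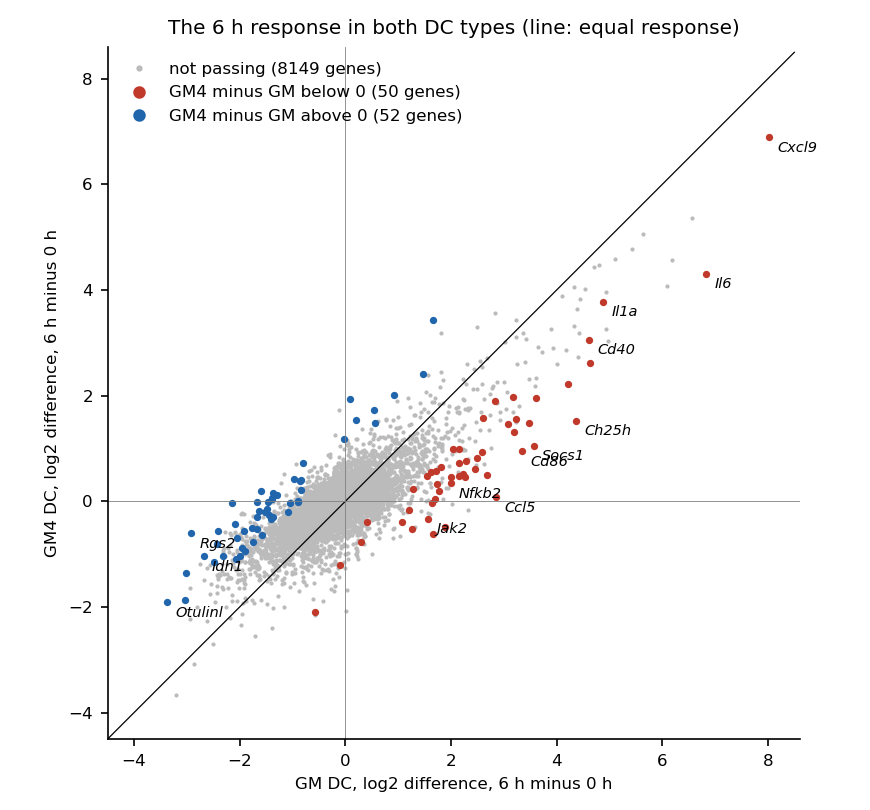
Each point is a gene, with the log2 difference of 6 h minus 0 h in GM DC on the x axis and in GM4 DC on the y axis, and the line marks equal responses. Of the 102 genes whose responses differed, 50 lie below the line and 52 above it.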

How the data were processed

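The authors deposited MAS5 signals, a linear intensity per probe set, for 15 Affymetrix arrays, and MAS5 is named in the submitters' processing notes. No version is given in the sources used here. Every array had a trimmed mean (2% off each end) of about 150.1. Of 12488 rows 66 controls were left out, which left 12422. Platform annotation gave 1 symbol for 10833, several for 396 and none for 1193. log2(signal + 16) was fitted in limma 3.58.1 (R 4.3.3) with 6 group means over all 15 arrays, 9 residual degrees of freedom, an intensity trend and Benjamini-Hochberg adjustment. The 28 genes with full values are the 14 largest differences in each direction among those that passed with no overlap between arrays, and further genes come from 38 lists (804 of 1068 genes measured). Members and lists were chosen with earlier results of these data known. The code was tested on simulated data. Alternatives covered offset, scaling, filter, weights, covariates, replicate block and left-out arrays. The number of arrays limits the precision.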

Additional observations from a re-analysis of the deposited data

Results flagged for a closer look

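The early responses of GM4 DC and GM DC differed, in the test of the difference itself, for 29 genes named in the text (GM4 minus GM, log2, with limma's adjusted p over all probe sets). Many of these genes were named for their change in GM DC, which enters the difference, so smaller changes in GM4 DC were favoured. The cytokine and chemokine genes among them had smaller log2 changes in GM4 DC, with differences for Cxcl9 of -1.12 (adjusted p = 0.014), Il6 of -2.52 (0.0074), Il1a of -1.11 (0.0342), Il12a of -1.88 (0.00994) and Ccl5 of -2.78 (0.0244). The change of Ccl5 within GM4 DC did not pass (0.08, adjusted p = 0.932). The activin-binding Fst differed by -1.98 (0.014). Signalling genes differed in the same direction: Nfkb2 by -1.65 (0.00286), Nfkbia by -1.52 (0.00863), Traf1 by -1.65 (0.0157), Jak2 by -1.90 (0.00286), Socs1 by -2.52 (0.00141) and Irf1 by -0.94 (0.0181). So did the interferon targets Gbp2 at -1.66 (0.000828) and Usp18 at -1.20 (0.0124), and the maturation genes Cd40 at -1.56 (0.000828) and Cd86 at -2.40 (0.00537). The enzymes Acod1 and Ch25h and the transporter Slc7a2 differed by -2.02 (0.0151), -2.84 (0.0099) and -1.66 (0.0244). The protein C receptor Procr differed by -2.01 (0.00306).

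Genes that had fallen in GM DC differed upward: Otulinl by 1.46 (0.0185), Lyl1 by 1.18 (0.0148), Cerk by 1.66 (0.0244), Rgs2 by 2.30 (0.00141), Idh1 by 1.64 (0.0151), Ly86 by 0.89 (0.0433), Zfp36l1 by 1.38 (0.0395), Grk6 by 1.62 (0.0135) and Tspan32 by 1.34 (0.0151). Of the 29, 11 (Cd40, Gbp2, Socs1, Nfkb2, Ch25h, Usp18, Procr, Rgs2, Otulinl, Grk6 and Tspan32) kept their call under all 23 alternative settings. Without GM 6 h replicate 1, the calls of 15 were lost: those of Il6, Cxcl9, Il1a, Il12a, Ccl5, Nfkbia, Traf1, Irf1, Acod1, Slc7a2, Lyl1, Cerk, Idh1, Ly86 and Zfp36l1.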

How the results depend on the processing

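All 28 genes with the largest differences kept direction and call under each of the 17 alternative settings. Fitting only the groups compared gave 1943 probe sets against 3012 (698 higher, 1245 lower) with 3 residual degrees of freedom, 70 against 119 for GM4 minus GM and 1198 against 2044 for 20 h against 6 h. Without GM 0 h replicate 3 and GM 6 h replicate 1, 1958 passed, of which 1252 were lower. Leaving out each array in turn gave 1929 to 2859 probe sets, 683 to 1180 higher and 1246 to 1831 lower, 54 to 298 for GM4 minus GM and 1242 to 1552 for 20 h against 6 h, with the lowest of the last without GM 20 h replicate 2. The GM4 minus GM count was 213 with the filter on low signals, 230 with array weights and 206 with the replicate block. The replicate block gave 3195 probe sets at 6 h against 0 h, 2870 of them shared. After the mean of each group was taken off, 0 h and 6 h samples with the same number correlated at 0.124 and 0.0494. With 2 arrays at 6 h the swapped pairs must give the same values with reversed sign (-0.124 and -0.0494). These 2 pairs therefore cannot decide whether the numbers mark shared cultures, and the block was used as an alternative only. With quantile normalization the differences of H2-Aa (-0.18), H2-D1 (-0.022), Cd74 (-0.063) and Ldha (-0.19), none of which passed, turned negative. The cause of these changes was not tested. Of the signals 29.7% to 35.3% per array were below 16 over all 15 arrays, where decreases are bounded by the offset.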

Other observations

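Some large changes lay outside the gene lists, and the genes named here were chosen after their values were seen. Procr, the endothelial protein C receptor, had signals of 141, 160.0 and 192 at 0 h and 4332 and 2554 at 6 h (4.22 ± 0.21), and Acpp, an acid phosphatase, 6.07, 41.5 and 41.6 at 0 h and 1092 and 695 at 6 h (4.41 ± 0.38). The actin-binding Cnn3 had 58.4, 50.5 and 258 at 0 h and 1162 and 1517 at 6 h (3.60 ± 0.42), and Hspa1a, an inducible heat shock protein, 26.4, 53.2 and 49.3 at 0 h and 567 and 641 at 6 h (3.42 ± 0.24). Among genes that fell, Txnip, an inhibitor of thioredoxin and of glucose uptake, went from 1128, 929 and 1014 at 0 h to 172 and 171 at 6 h (-2.47 ± 0.16). The kinase Grk6, which desensitises G protein-coupled receptors, went from 256, 201 and 192 at 0 h to 35.6 and 19.8 at 6 h (-2.42 ± 0.21) and the tetraspanin Tspan32 from 382, 423 and 395 at 0 h to 66.5 and 50.3 at 6 h (-2.49 ± 0.18). None of these 7 had arrays that overlapped between 0 h and 6 h.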
